A study of Mus musculus with 6 samples.

Results

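The semaphorins, plexins, neuropilins, ephrins and Eph receptors form a pair of guidance systems that steer growing axons and migrating cells. Members were found by their gene symbols in the authors' deposited table of polyA RNA-seq, where 52 of 15095 genes matched: 20 semaphorins, 8 plexins, 2 neuropilins, 8 ephrins and 14 Eph receptors. The series holds 3 libraries labelled Setd2-KO and 3 labelled wild type, both made from neural progenitor cells (NPCs) derived from mouse embryonic stem cells in aggregates kept first without and then with retinoic acid (5 uM). The Setd2-KO line lacks the methyltransferase that places H3K36me3 on transcribed genes, was made with CRISPR in the same HA36CB1 stem cell background, and shares with the wild-type line the culture medium, the retinoic acid step and the day of collection. It was not stated in the sources used whether replicate libraries stem from differentiations that were run apart.

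The value used for each gene was the authors' average log2 CPM (read counts scaled to library size), which is a single mean over both genotypes. The same table also holds the authors' own comparison of the genotypes, which was not used, so the difference between Setd2-KO and wild-type NPCs was not analysed here and all levels below describe the 2 genotypes together. No value per library was used, and therefore no SD can be given and no test was run. To compare genes, the log2 CPM was scaled to the length of the canonical transcript in kilobases (log2 CPM per kb). Each member was then placed among the 15066 genes of the table with a known length, whose median was 2.77, with the middle 50% between 0.44 and 4.29. The table lists only genes that passed the authors' filter on low counts, so a percentile here is a position among expressed genes. Differences in level between genes have a replicate error that cannot be estimated from a single mean per gene. The only spread available was that over 4 ways of measuring transcript length.

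The labels' cell type field names the stem cells of origin, while the titles name NPCs, and the markers were those of neural cells. Of 8 neural progenitor markers 7 were listed, with a median of 5.70 log2 CPM per kb and a range from 3.65 for Fabp7 to 8.69 for Vim, while Sox1 was not among the genes of the table used here. The 7 markers of postmitotic neurons had a median of 5.00 and ran from Rbfox3, at 2.76 close to the median of all genes, to Tubb3 at 8.07. Lower medians were found for the markers of other cells, although single genes among them were above the median of all genes. The 5 endoderm markers had a median of 2.48, with Apoa1 the highest at 3.54, and the 5 pluripotency markers had a median of 0.56, running from Nanog at -1.36 to Dppa5a at 2.86. The 6 endothelial markers had a median of 1.45. Of the 4 markers of neural crest and Schwann cells, with a median of -0.68, Foxd3 reached 3.95 and Sox10 was at -2.82. Among the 4 markers of astrocytes and oligodendrocytes, 2 were listed, Mbp at 3.42 and Gfap at -3.79. None of the 4 markers of microglia and blood was listed. The guidance genes are used by several of these cell types, and in bulk RNA the share of cells expressing a gene and the RNA of that gene per cell cannot be told apart.

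Semaphorins are secreted or membrane-bound ligands that carry a sema domain. They bind plexins, whose cytoplasmic part acts on small GTPases and so collapses or turns the growth cone. Most class 3 semaphorins are secreted and need a neuropilin to bring them to a plexin-A. Eph receptors are receptor tyrosine kinases, and their ephrin ligands stay on the membrane of the neighbouring cell, so that signals pass at contact and can run in both directions. In the neural tube both systems are known for guiding axons and for keeping groups of cells apart.

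Among the 5 classes, ephrins and plexins stood highest. The 8 ephrins had a median of 4.60 log2 CPM per kb, at percentile 79.6 of all genes, and the 8 plexins had a median of 4.35, at percentile 75.8. The 2 neuropilins had a median of 3.34. Eph receptors, with a median of 2.62, lay close to the median of all genes, and semaphorins, with a median of 1.76, lay below it at percentile 36.9. Ligands therefore stood at both ends of this order. Within the semaphorins and the Eph receptors the spread was wide, covering 8.03 and 8.68 on the log2 scale, against 2.57 among ephrins. Over all 52 members, 28 lay above the median of all genes, 13 above the upper quartile and 12 below the lower quartile. Taken as a whole, the members were thus spread much as all genes are. Of the 53 genes of these families in the reference annotation, Plxnb3, a plexin-B gene on chromosome X, was the only gene that the table used here did not list. The share of all annotated genes that it lists was not computed, so this is not shown to be particular to these families.

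**Figure D1:**
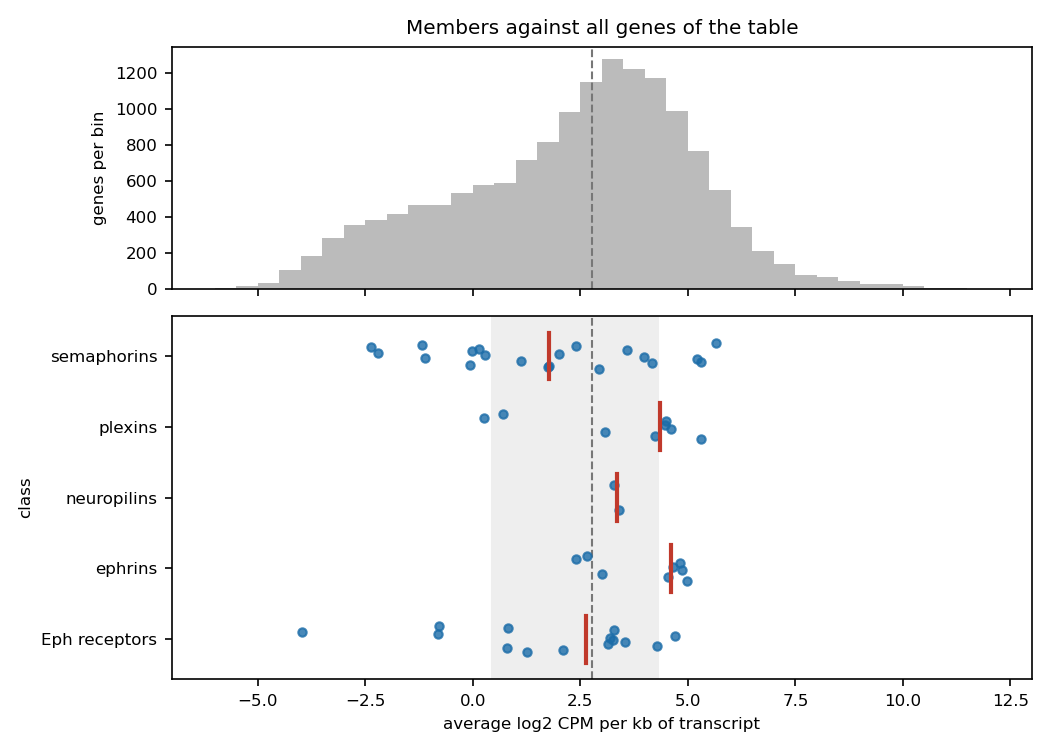
Average log2 CPM per kb of transcript (x axis): the upper panel counts all 15066 genes in bins (y axis), and the lower panel shows each of the 52 members as a point, by class (y axis), with a red bar at the class median, a dashed line at the median of all genes (2.77) and grey shading over the middle 50%. Ephrins (4.60) and plexins (4.35) have the highest medians and semaphorins (1.76) the lowest.

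Secreted class 3 semaphorins were low, with 1 exception. Sema3f, a repellent that acts through neuropilin-2, stood at 4.17 log2 CPM per kb. It made up 73.3% of the summed CPM per kb of its class, or from 62.0% to 70.1% under the other lengths. The next, Sema3c, known as an attractant of cortical axons and of cardiac neural crest cells, reached 1.77. Sema3b (0.27), Sema3a (0.15) and Sema3g (-1.19) followed, of which Sema3a is the classic repellent of sensory axons through neuropilin-1. Sema3d (-2.22) and Sema3e (-2.37) were the lowest semaphorins of all. Sema3e differs from its class in that it binds plexin-D1 without a neuropilin. The 7 genes of the class ranged over 6.54 on the log2 scale, and their median of 0.15 was at percentile 22.6.

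Sema3f and Sema3b lie 101 kb apart on chromosome 9 (distance between start sites, GRCm39), yet their levels differed by 3.90 on the log2 scale. Plxnb1, 1336 kb from Sema3f, had a level near that of Sema3f, at 4.50. On chromosome 5, Sema3d lies 742 kb and Sema3c 4604 kb from Sema3a, with Sema3e between them, and all 4 were below the median of all genes, between -2.37 and 1.77. Members on the same chromosome with start sites less than 5 Mb apart were taken as neighbours, whether or not they are adjacent genes. Neighbours so defined could be alike or far apart in level. Gaps between members that are not neighbours were not computed.

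Transmembrane semaphorins supplied most of the semaphorin RNA. Sema6c, a class 6 semaphorin that binds plexin-A1, was the highest member of both systems on the canonical length. Its level was 5.66 log2 CPM per kb (percentile 91.3). Sema6c held 77.2% of the sum of its class, or from 69.4% to 72.9% under the other lengths. It is ENSMUSG00000038777, on the plus strand of chr3:95067726-95084627 (GRCm39). Its first place did not hold for every length, since Plxnb2 was first with all exons joined (5.01) or the longest transcript (5.29) and Efnb2 with the coding length (6.85). Sema6a, a ligand of plexin-A2 and plexin-A4, was at 2.93, Sema6d at 2.01 and Sema6b at 1.74. In class 4, Sema4c (5.31) and Sema4g (5.21) were nearly equal, and Sema4g was the higher with the longest transcript, so that neither can be placed above the other. Sema4c binds plexin-B2. Sema4b, at 3.58, was above the median of all genes, and Sema4d, the ligand of plexin-B1, was below it at 2.40. Sema4f (-0.03) and Sema4a (-0.07) were the lowest of class 4, which spanned 5.37 on the log2 scale.

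The class 5 semaphorins, which carry thrombospondin repeats beside the sema domain, were split. Sema5b stood at 3.97 and Sema5a at -1.12 log2 CPM per kb, a difference of 5.09, so that Sema5b made up 97.1% of the sum. Sema7a, which is held in the membrane by a lipid anchor and signals through integrins and plexin-C1, was at 1.11. Its receptor Plxnc1 was also low, at 0.69, near the lower quartile of all genes.

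Plexins were high with a few exceptions. Plxna2 (4.60), Plxna1 (4.46) and Plxna3 (4.23) lay close together on the canonical length. Plxna1 took first place with the coding length or all exons joined. With the coding length these 3 genes ran from 4.53 for Plxna3 to 5.74 for Plxna1. Plxna4, which mediates responses to Sema3a and Sema6a in sensory and other neurons, was far below them at 0.25 and made up 1.79% of the plexin-A sum. Among receptors of class 4 semaphorins, Plxnb2 reached 5.30 log2 CPM per kb, and Plxnb1 reached 4.50. Plxnb2 was the highest receptor under 3 of the 4 length measures, the exception being the coding length, where Ephb2 was first with 6.59. Plxnd1, the receptor of Sema3e, was at 3.07 while Sema3e itself was at -2.37. Nrp2 (3.39) and Nrp1 (3.28), the co-receptors of class 3 semaphorins, differed by 0.11 on the canonical length. Nrp2 was the higher under each length, and the gap was wider with all exons joined (2.56 and 1.71) or the coding length (4.68 and 4.17).

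Set side by side by binding partner, ligands and receptors did not follow a single pattern. On the canonical length, the plexin-B genes summed to 62.0 CPM per kb and the class 4 semaphorins to 95.8 CPM per kb. In the same order, they summed to 49.9 and 54.1 with all exons joined. The sums were 59.8 and 80.8 with the longest transcript, and 83.6 and 166.4 with the coding length. For plexin-A and class 6 semaphorins the sums were 66.3 and 65.6 CPM per kb on the canonical length. These were not equal under the other lengths, where the sums for plexin-A and class 6 were 52.6 and 26.4 with all exons joined, 66.1 and 37.1 with the longest transcript, and 126.6 and 96.9 with the coding length. Class 3 semaphorins summed to 24.6 CPM per kb, of which most was Sema3f, beside 20.3 CPM per kb for both neuropilins. With all exons joined these sums were 15.5 and 9.19 CPM per kb, and with the coding length 43.7 and 43.6. The sums count RNA, not protein, and they do not show which cells carry ligand and which carry receptor.

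**Figure D2:**
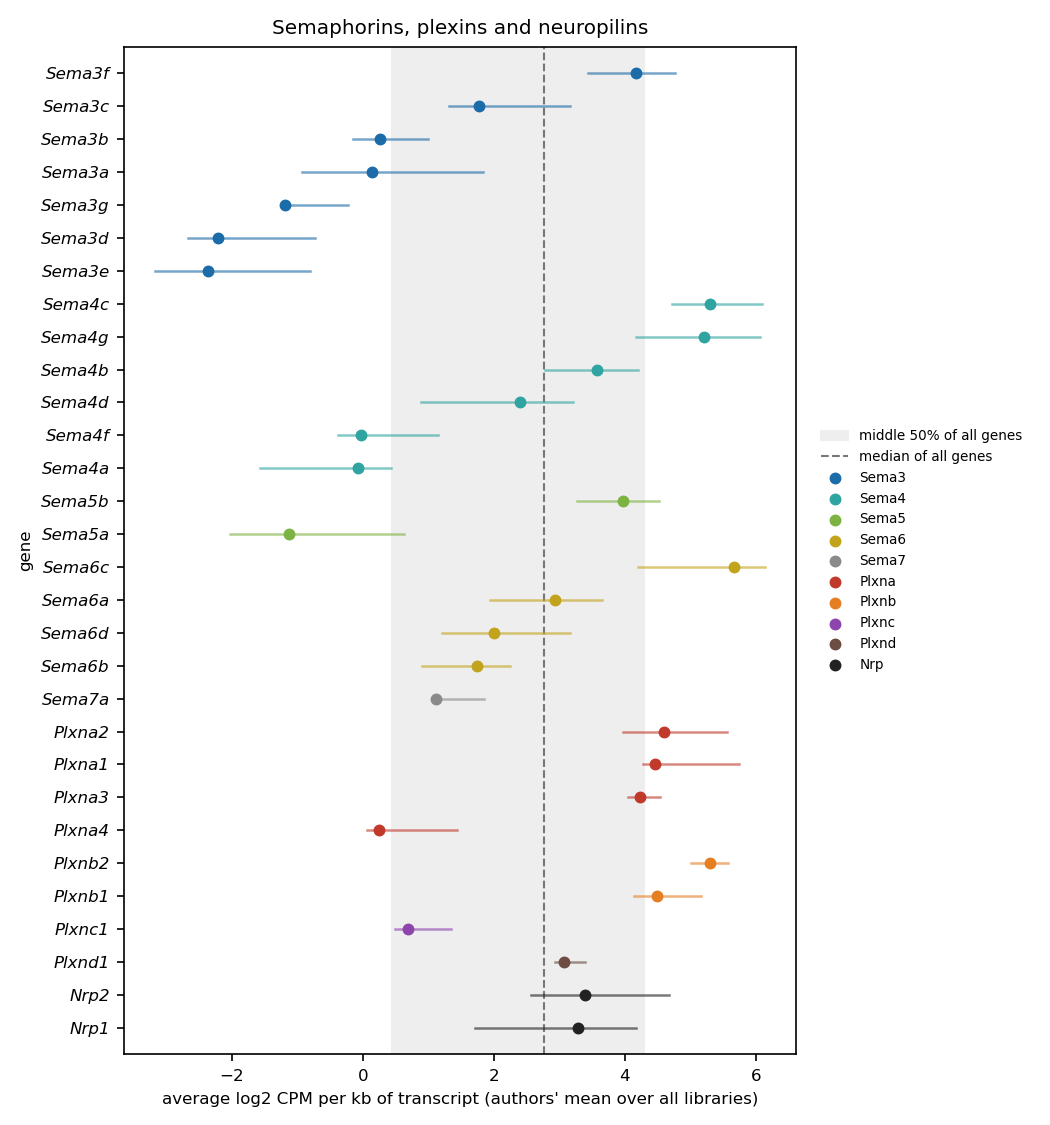
Average log2 CPM per kb of transcript (x axis) of the semaphorins, plexins and neuropilins (y axis), coloured by class; points use the canonical transcript, and bars span the values under 4 measures of length. The dashed line is the median of all genes (2.77) and the grey band their middle 50%, both on the canonical length only, so they are a reference for the points and not for the bar ends. Sema6c (5.66), Sema4c (5.31) and Plxnb2 (5.30) lie at the upper end and Sema3e (-2.37) at the lower end.

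The length scaling mattered for the long plexin transcripts. By log2 CPM alone, Plxna1 was the first of the 52 members with 8.25, but with a canonical transcript of 13758 bases it took place 13 once scaled. Efna2 moved the other way, at place 16 by its log2 CPM of 6.10 and place 5 once scaled, with a transcript of 2181 bases. Over the members, both orders were similar (Spearman's rho 0.94 over 52 genes, as a description).

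Ephrins spanned 2.57 on the log2 scale, less than the semaphorins, plexins and Eph receptors but more than the 2 neuropilins. Ephrin-A genes encode ligands with a lipid anchor that mainly bind EphA receptors, and ephrin-B genes encode transmembrane ligands that mainly bind EphB receptors and pass a signal into their own cell. On the canonical length, the 3 ephrin-B genes lay within 0.32 on the log2 scale. Efnb1 was at 4.86, Efnb3 at 4.82 and Efnb2 at 4.54 log2 CPM per kb. Their order changed with the length measure, and they cannot be ranked. Ephrin-A genes were less even. Efna2 (4.97) and Efna4 (4.66) were as high as the ephrin-B genes, whereas Efna3 (3.01), Efna5 (2.66) and Efna1 (2.40) were near the median of all genes. Efna5 is known for repelling retinal axons in the midbrain. Efna2 took 41.2% of the ephrin-A sum.

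Efna4, Efna3 and Efna1 lie side by side on chromosome 3, with start sites 15.1 and 41.8 kb apart. Their levels followed their order along the chromosome, with Efna4 the highest and Efna1 the lowest and 2.26 on the log2 scale between the ends of the row. Sema4a, 816 kb from Efna1, was lower again, at -0.07.

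EphB receptors were led by Ephb2. Ephb2, a receptor of ephrin-B ligands in commissural axons and at synapses, stood at 4.70 log2 CPM per kb and made up 42.5% of the EphB sum, or 65.3% with the coding length. Ephb4, best known as the receptor of ephrin-B2 in veins, followed at 4.28 and Ephb3 at 3.54. All 6 endothelial markers were listed, between -2.41 for Tek and 2.37 for Cdh5, each below the level of Ephb4, and their part in its level was not tested. Ephb6 (1.25), whose kinase domain lacks activity, and Ephb1 (0.81) were the lowest of the class.

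EphA receptors lay lower and, on the canonical length, in separate groups. Epha10 (3.27), Epha4 (3.25), Epha2 (3.20) and Epha3 (3.14) lay within 0.13 on the log2 scale, and which was first depended on the length measure. The group was less tight with the coding length, from 3.62 for Epha2 to 4.35 for Epha4, with Epha7 at 3.29. Epha4 binds ephrins of both classes and keeps axons of spinal motor circuits from crossing the midline wrongly, while Epha10 lacks a working kinase. Epha7 was at 2.10 and Epha1 at 0.79. Epha8 (-0.79) and Epha5 (-0.82) were below the lower quartile of all genes. Epha6 was the lowest member of both systems, at -3.98 log2 CPM per kb, and the only member whose average log2 CPM was under 0 (-2.01), which makes its value the least precise. Its place was the same under all 4 length measures, and it is ENSMUSG00000055540, on the minus strand of chr16:59473846-60425894 (GRCm39). By sum, EphB receptors had 61.2 CPM per kb and EphA receptors 44.4 CPM per kb, beside 80.5 CPM per kb for ephrin-B and 76.3 CPM per kb for ephrin-A ligands. With all exons joined, ephrin-A had the higher ligand sum, at 73.0 against 68.0 CPM per kb for ephrin-B, whereas the EphB sum was above the EphA sum under each length.

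**Figure D3:**
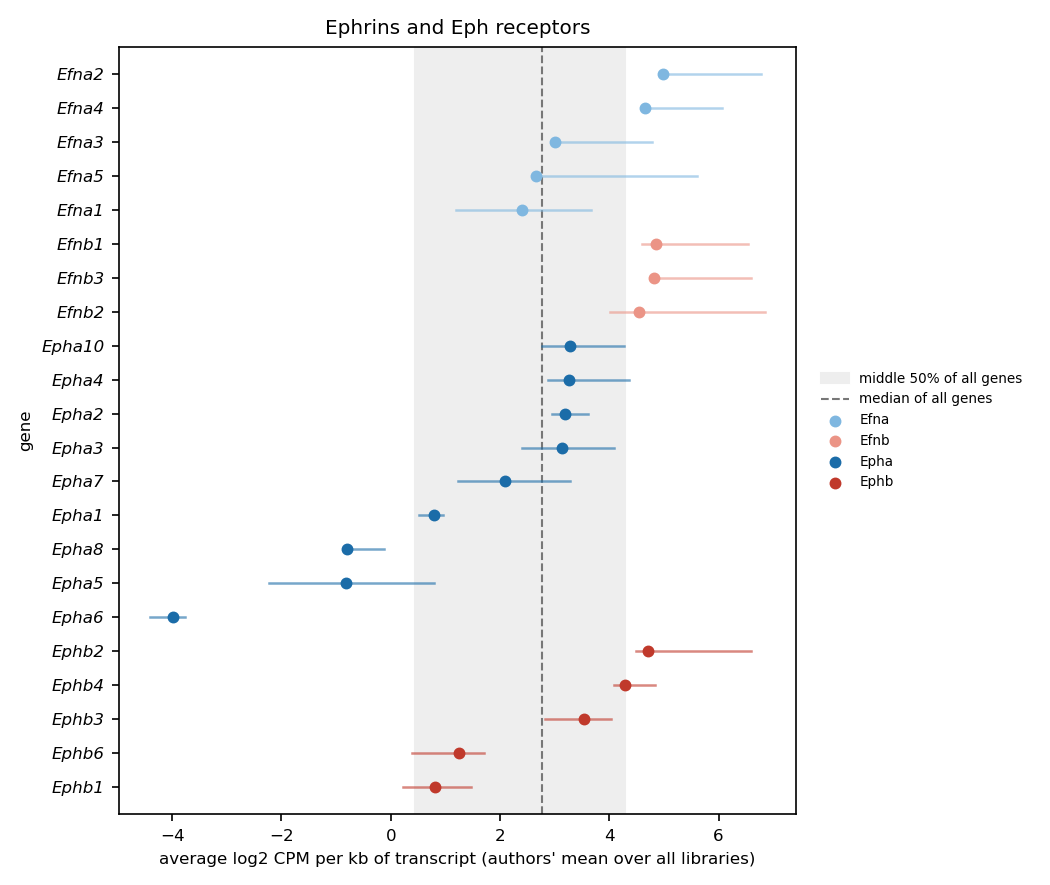
Average log2 CPM per kb of transcript (x axis) of the ephrins and Eph receptors (y axis), coloured by class. Points use the canonical transcript, and bars span the values under 4 measures of length. The dashed line and grey band show the median (2.77) and middle 50% of all genes on the canonical length only, a reference for the points and not for the bar ends. The 3 ephrin-B genes lie together between 4.54 and 4.86, while Eph receptors run from Epha6 at -3.98 to Ephb2 at 4.70.

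A few Eph genes that are neighbours, by the limit of 5 Mb used above, differed strongly. Ephb2 and Epha8 lie 121 kb apart on chromosome 4 and differed by 5.49 on the log2 scale, with Ephb2 the higher. Epha3 and Epha6 lie 3259 kb apart on chromosome 16 and differed by 7.12, with Epha3 the higher. Epha6 was the lowest of the 52 members, so a wide gap to it is not particular to its neighbour. By contrast, Ephb6 and Epha1, 768 kb apart on chromosome 6, differed by 0.46. The promoters of the first 4 genes are shown because their levels differ most among neighbours, with each CG dinucleotide in capitals, since a high density of CG marks a CpG island. Each sequence runs from 250 bases before to 50 bases after the transcription start and is taken from RefSeq on GRCm38.p6, a build different from that of the distances above. The windows are chr4:136835963-136836262 for Ephb2, chr4:136956767-136957066 for Epha8, chr16:63864126-63864425 for Epha3 and chr16:60605482-60605781 for Epha6, all on the minus strand.
Ephb2: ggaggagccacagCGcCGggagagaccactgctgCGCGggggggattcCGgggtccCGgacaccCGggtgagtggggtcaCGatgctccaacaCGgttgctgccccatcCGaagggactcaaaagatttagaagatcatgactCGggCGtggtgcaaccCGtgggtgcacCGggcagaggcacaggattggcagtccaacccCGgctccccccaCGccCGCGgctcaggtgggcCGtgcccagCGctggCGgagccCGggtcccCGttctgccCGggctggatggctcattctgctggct
Epha8: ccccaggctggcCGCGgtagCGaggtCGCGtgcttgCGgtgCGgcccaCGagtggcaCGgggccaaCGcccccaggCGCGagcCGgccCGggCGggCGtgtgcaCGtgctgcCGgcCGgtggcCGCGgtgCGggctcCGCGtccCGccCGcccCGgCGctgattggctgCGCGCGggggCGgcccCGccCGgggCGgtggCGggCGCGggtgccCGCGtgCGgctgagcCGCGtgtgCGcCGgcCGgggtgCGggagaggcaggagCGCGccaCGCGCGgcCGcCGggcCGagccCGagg
Epha3: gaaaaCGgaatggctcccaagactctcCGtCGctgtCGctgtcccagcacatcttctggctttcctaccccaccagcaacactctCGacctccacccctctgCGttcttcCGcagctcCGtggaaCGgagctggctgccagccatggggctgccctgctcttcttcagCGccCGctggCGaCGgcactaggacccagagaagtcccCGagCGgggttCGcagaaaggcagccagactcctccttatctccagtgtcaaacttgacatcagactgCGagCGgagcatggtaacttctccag
Epha6: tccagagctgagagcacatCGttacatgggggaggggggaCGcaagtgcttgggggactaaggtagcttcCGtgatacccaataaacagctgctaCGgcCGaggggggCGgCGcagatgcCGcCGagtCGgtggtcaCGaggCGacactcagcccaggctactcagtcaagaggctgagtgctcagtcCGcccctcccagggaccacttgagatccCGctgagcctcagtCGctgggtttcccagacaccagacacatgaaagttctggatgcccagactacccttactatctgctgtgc

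The low gene of the chromosome 4 neighbours had the denser promoter. Epha8 held 56 CG dinucleotides in its 300 bases, a count reached by 0.233% of the 27025 genes with a promoter in the RefSeq table, and Ephb2 held 24, a count reached by 21.9%. Epha3 held 18 and Epha6 held 15, counts reached by 32.1% and 37.1% of those 27025 genes. The median count was 8 over those genes but 21 over the 11669 genes of the table with a promoter. Epha3 and Epha6 were thus below the middle of the genes of the table. A CG dinucleotide reads the same on both strands, and where a gene had several starts the highest count was used. A count of CG is a description of the letters and says nothing of methylation, which was not measured here.

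Promoters were found for 46 of the 52 members, with counts between 2 for Sema3a and 56 for Epha8 and a median of 23, against a median of 21 over the 11669 genes of the table with a promoter. Low CG counts were found beside low levels in Sema3a (2), Sema3d (8), Sema3g (8), Sema4f (7) and Sema3e (11). Other low members had counts at or above the members' median. These were Epha8 (56), Epha5 (30) and Sema5a (23), at -0.79, -0.82 and -1.12 log2 CPM per kb. Sema4d, with 3, stood near the median of all genes at 2.40 log2 CPM per kb. Epha2, with 10, and Efna4, with 11, were above that median at 3.20 and 4.66. Across the 46 members, CG count and level had a Spearman's rho of 0.28 (Pearson's r 0.23), and across 11660 genes of the table a rho of 0.33. These points share the same libraries and the same length scaling, and the values are descriptions.

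**Figure D4:**
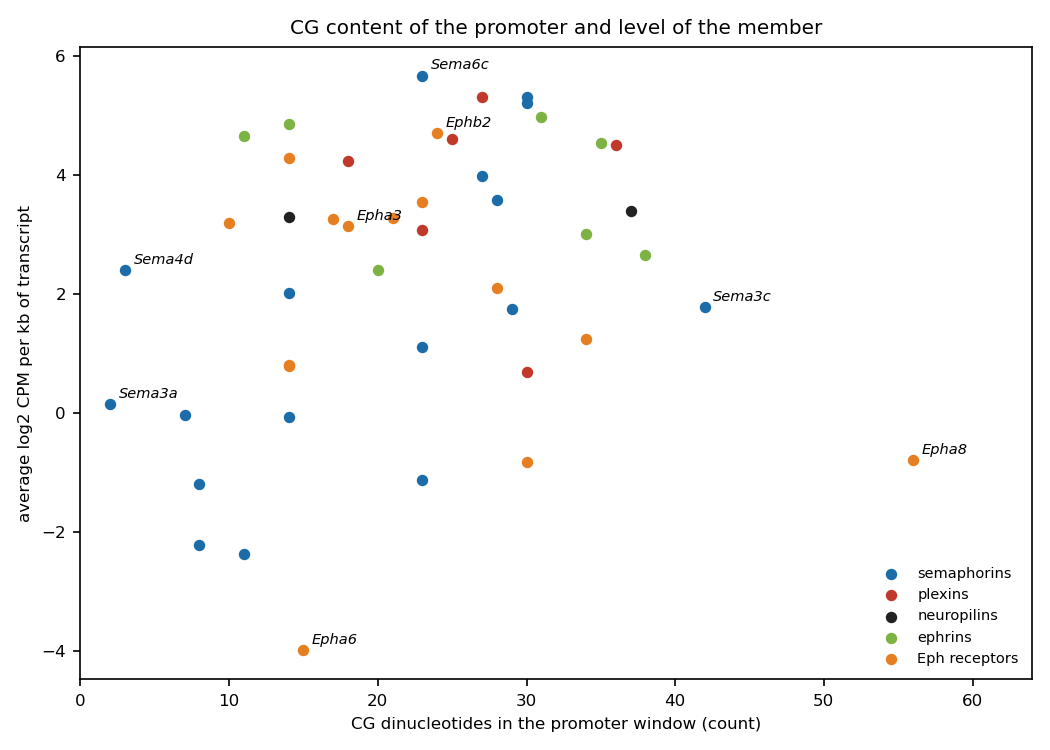
Number of CG dinucleotides in the promoter window of 300 bases (x axis) and average log2 CPM per kb of transcript (y axis) for 46 members, coloured by class. Epha8, with 56 CG dinucleotides, has a level of -0.79, and Sema6c, with 23, has the highest level (5.66).

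Genes on the lists of signalling partners were all listed, though the share of all annotated genes that were listed was not computed. The semaphorin list holds co-receptors and other surface proteins, such as L1cam and Itgb1, beside genes that act inside the cell. All 32 of its genes were in the table, with a median of 3.36 log2 CPM per kb (percentile 59.8). The highest were Gipc1, an adaptor that binds neuropilin-1 (6.85), Crmp1 (6.84), Dpysl4 (6.62), Dpysl3 (6.58) and Rhoa (6.56). Crmp1, Dpysl3 and Dpysl4 belong to the collapsin response mediator proteins, which pass the signal of Sema3a to microtubules, and they were high although Sema3a itself was at 0.15. Itga1, an integrin chain, was the lowest at -4.19. All 29 genes on a list of Eph and ephrin signalling partners were in the table too, with a median of 3.57 (percentile 63.5). Sdcbp, whose product syntenin binds ephrin-B tails, led with 5.56, followed by the kinase gene Abl1 (5.32), the phosphatase gene Inppl1 (5.11), the receptor gene Ryk (5.04) and Pick1 (4.95). Ngef, which encodes an exchange factor that acts below EphA4, was low at -0.34, and Cbl was the lowest at -0.51.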

How the data were processed

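PolyA RNA of 3 Setd2-KO and 3 wild-type NPC samples was sequenced by the authors. Tools named in the submitters' notes are Trim Galore, STAR and edgeR, with NCBIM37 and mm9 as builds; the paper's methods name GRCm39 and Salmon, and which of these made the table is not given in the sources used. The value used was the authors' deposited average log2 CPM, 1 per gene over all libraries, after their filter on low counts and normalization, so the depth per library is unknown. The deposited table also holds the authors' fold changes, p-values and FDR for the genotypes, which were not used.

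Members were found by symbol, and members and lists were chosen with earlier results of these data known. Gene IDs were matched without version to GENCODE vM39 (GRCm39), where 15066 of 15095 were found, and the log2 of the canonical transcript length in kb was subtracted. Medians, percentiles and sums of CPM per kb were computed with Python 3.11.15, numpy 2.4.6, pandas 2.3.3 and scipy 1.17.1. Every member could be named, with the highest and lowest of each class, all under an average log2 CPM of 0, family genes not listed and the 5 highest partners of each pathway list; Ngef, Itga1, Cbl, neighbouring genes and those singled out by CG count were named after their values were seen. Alternatives were other transcript lengths, a filter on low levels, protein-coding genes as background and RefSeq families. The length step was tested on simulated data.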

Additional observations from a re-analysis of the deposited data

How the results depend on the processing

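The measure of transcript length moved several class medians by more than 1.5-fold. With the length of all exons joined, the median was 1.81 log2 CPM per kb for Eph receptors, 2.14 for neuropilins and 1.01 for semaphorins. With the coding length it was 3.45 for Eph receptors, 6.30 for ephrins, 4.43 for neuropilins and 2.70 for semaphorins. Ephrins and plexins kept the highest medians under each length. With the length of the longest transcript, or without the members under an average log2 CPM of 0, no class median moved by as much. No percentile moved by 10 points with protein-coding genes as background, but percentiles were not recomputed under the other lengths. RefSeq gave the same share of the families listed, 98.1%. Of the 52 members, 39 moved by more than 1.5-fold with the coding length, 24 with all exons joined and 4 with the longest transcript. A coding length is never above the canonical length, and joined exons or the longest transcript are never below it. The direction of each move was therefore fixed, and the share of all genes that moved was not computed. These counts describe the lengths, not the standing of the members among all genes. Of the 11 classes with at least 2 genes, the highest member was the same in 8 with the coding length, 8 with all exons joined and 9 with the longest transcript, and the lowest in 10, 11 and 10. No paired analysis was possible because the table gives 1 mean over all libraries, and no library could be left out. The precision of a level is limited by the depth, which is unknown, most of all for Epha6.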
